A study of Homo sapiens with 9 samples.

Results

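Transcripts of 9 complement genes were measured in human cells labelled Weri-RB1/CRP, a retinoblastoma line made resistant to carboplatin: the proteases C1R and C1S, the components C3 and C5, the factors CFB and CFI, and the membrane inhibitors CD46, CD55 and CD59. They were taken by gene symbol from the deposited table, in which all 9 of 9 were found among 27407 features, and all 9 passed the filter on low counts. The genes were chosen by their measured levels and fold changes over the 3 groups and between the hairpins, so their differences between groups are given as a description, with no p-values printed. Which of them passed a threshold is listed as part of that description, and neither those calls nor counts of them support anything. The cells of 3 libraries carried the hairpin shSNHG1#1, those of 3 carried shSNHG1#2 and those of 3 carried the control hairpin shNC. Both SNHG1 hairpins were designed to lower SNHG1, a long noncoding RNA gene, and all groups share the resistant line, grown in RPMI medium with serum. The labels name no carboplatin-exposed library and no parental line, do not say whether a group comes from 1 clone or a pool of cells, and do not say that replicates are separate cultures. P-values therefore reflect spread among these libraries only, and that spread may be technical. SNHG1 was not analysed here, so the extent of knockdown was not checked.

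Complement is a cascade of serum and cell-surface proteins. In the classical pathway, antibody-bound C1q activates the proteases C1r and C1s, which lead to cleavage of C3; in the alternative pathway, factor B supplies the protease of the C3 convertase and amplifies C3 cleavage. Cleavage of C5 then starts assembly of the membrane attack complex. Host cells limit the cascade: factor I cuts C3b and C4b with cofactors such as CD46, CD55 speeds decay of the convertases, and CD59 blocks the final pore. Liver makes most of the circulating components, and many other cell types, epithelial and retinal cells included, also transcribe several of these genes.

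Promoter sequence is shown for the genes whose levels the results turn on: C1R and CFB, which lay on opposite sides of shNC with the 2 hairpins, and the membrane inhibitors CD55 and CD59, which differed from shNC in opposite directions. The set of promoter sequences used here (GRCh38.p14) held 7 of the 9 genes. It lacked C1S and C3, so their promoters were not searched. Each stretch is the 250 bases before the outermost RefSeq start, 5′ to 3′ on the gene's strand, and capitals mark the motif matches described after them.
C1R, chr12:7092446-7092695, minus strand: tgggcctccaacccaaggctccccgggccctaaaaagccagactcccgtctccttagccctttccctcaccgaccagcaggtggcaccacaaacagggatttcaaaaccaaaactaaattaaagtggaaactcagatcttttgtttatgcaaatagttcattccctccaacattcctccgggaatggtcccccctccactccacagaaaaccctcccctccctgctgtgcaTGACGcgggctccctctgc
CFB, chr6:31945845-31946094, plus strand: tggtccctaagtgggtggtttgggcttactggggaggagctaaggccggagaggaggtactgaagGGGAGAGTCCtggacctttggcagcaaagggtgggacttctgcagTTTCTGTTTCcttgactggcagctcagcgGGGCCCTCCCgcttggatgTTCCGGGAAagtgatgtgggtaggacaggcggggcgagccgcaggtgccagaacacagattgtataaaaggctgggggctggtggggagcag
CD55, chr1:207321428-207321677, plus strand: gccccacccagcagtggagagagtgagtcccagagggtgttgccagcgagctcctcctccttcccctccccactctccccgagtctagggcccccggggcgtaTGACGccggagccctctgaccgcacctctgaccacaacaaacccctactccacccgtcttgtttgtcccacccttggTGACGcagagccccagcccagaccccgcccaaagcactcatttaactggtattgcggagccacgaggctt
CD59, chr11:33736480-33736729, minus strand: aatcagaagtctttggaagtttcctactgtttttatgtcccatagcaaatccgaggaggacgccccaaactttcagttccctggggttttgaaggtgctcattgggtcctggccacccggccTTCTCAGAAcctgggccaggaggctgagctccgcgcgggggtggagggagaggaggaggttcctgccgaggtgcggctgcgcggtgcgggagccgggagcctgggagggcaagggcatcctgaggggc
Motifs were searched on both strands. The capitals in C1R and CD55 are TGACG, the core of the cyclic AMP response element, which was found in 4 of the 7 stretches (C1R, C5, CD46 and CD55) and in 21.6% of 27305 promoters of the same length. In CFB they mark TTCNNNGAA, the GAS element bound by STAT factors (6.76% of promoters), an interferon response core, GAAA, any 2 bases and GAAA (3.07%), and, at 2 places, an NF-kB form, GGGA, any 4 bases and CC (22%). In CD59 they mark TTCNNNGAA. ACGTG, a hypoxia response core present in 18.6% of promoters, was in none of the 7 stretches, and CFI held none of the 5 motifs. No motif matches overlapped. These are matches of letters in 1 window, with no binding measured.

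Total expected counts lay between 21502093 and 21606498 per library, and replicates of a group differed by more than sampling noise (chi-square per degree of freedom 3.12 to 6.29). The labelled cell type was checked first. Of 9 photoreceptor and retinoblastoma markers in the table, 7 stayed below 1 FPKM (fragments per kilobase of transcript, scaled to library size) on average in every group. CRX, a photoreceptor transcription factor, reached at most 0.03 FPKM and RCVRN, which encodes recoverin, at most 0.09 FPKM in any library. In contrast GNAT2, which encodes cone transducin, lay between 15.97 and 19.56 FPKM, and THRB lay between 1.63 and 2.43 FPKM. The keratins KRT8 and KRT18, markers of simple epithelia, lay between 745.28 and 790.25 FPKM and between 684.45 and 764.45 FPKM. The other epithelial markers were lower: KRT19 had 36.28 to 61.31 FPKM and CDH1 21.74 to 27.54 FPKM. CLDN4 had 3.56 to 8.69 FPKM and EPCAM 1.56 to 3.56 FPKM. ALB, which encodes albumin, a hepatocyte product, reached at most 0.15 FPKM in any library, and FGB, the fibrinogen beta chain, lay between 5.60 and 9.65 FPKM. The retinoblastoma label was thus not borne out by 7 of its 9 markers in the table, and the cells are called here by their groups. 1 library stood apart: replicate 1 of shSNHG1#1 had 18.89 FPKM summed over 7 fibroblast and endothelial markers, against 3.75 to 3.97 FPKM in the other shSNHG1#1 libraries, 3.39 to 3.84 FPKM with shSNHG1#2 and 2.07 to 3.11 FPKM with shNC. It was the highest library for all 7 of them and for 5 of 7 monocyte and macrophage markers. Levels of the 9 complement genes in it lay close to those in the other shSNHG1#1 libraries, as the values show. In bulk RNA, fewer cells of a type and less RNA per cell cannot be told apart.

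The 9 genes fell into 3 ranges of level. CD55, C3, C1R, CFB and C1S were among the abundant transcripts: in shNC libraries CD55 averaged 173 FPKM, above 98.3% of tested features, and C1S averaged 107 FPKM, above 97.2%. CD46, CD59 and C5 lay lower, between 41.6 and 71.2 FPKM on average with shNC, and CFI was low at 0.81 FPKM, above 26.5% of tested features. The order of levels changed between groups in the middle of the list. With shSNHG1#1 it ran CD55, C3, C1S, C1R, CFB, CD46, C5, CD59, CFI. With shSNHG1#2 it ran CD55, C3, C1R, C1S, CFB, CD46, CD59, C5, CFI, and with shNC it ran CD55, C1R, C3, CFB, C1S, CD46, CD59, C5, CFI. Neighbours whose libraries overlapped were C5 and CD59 in each group, and C1R and C3 with shSNHG1#2 and with shNC; all others were separate.

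**Figure D1:**
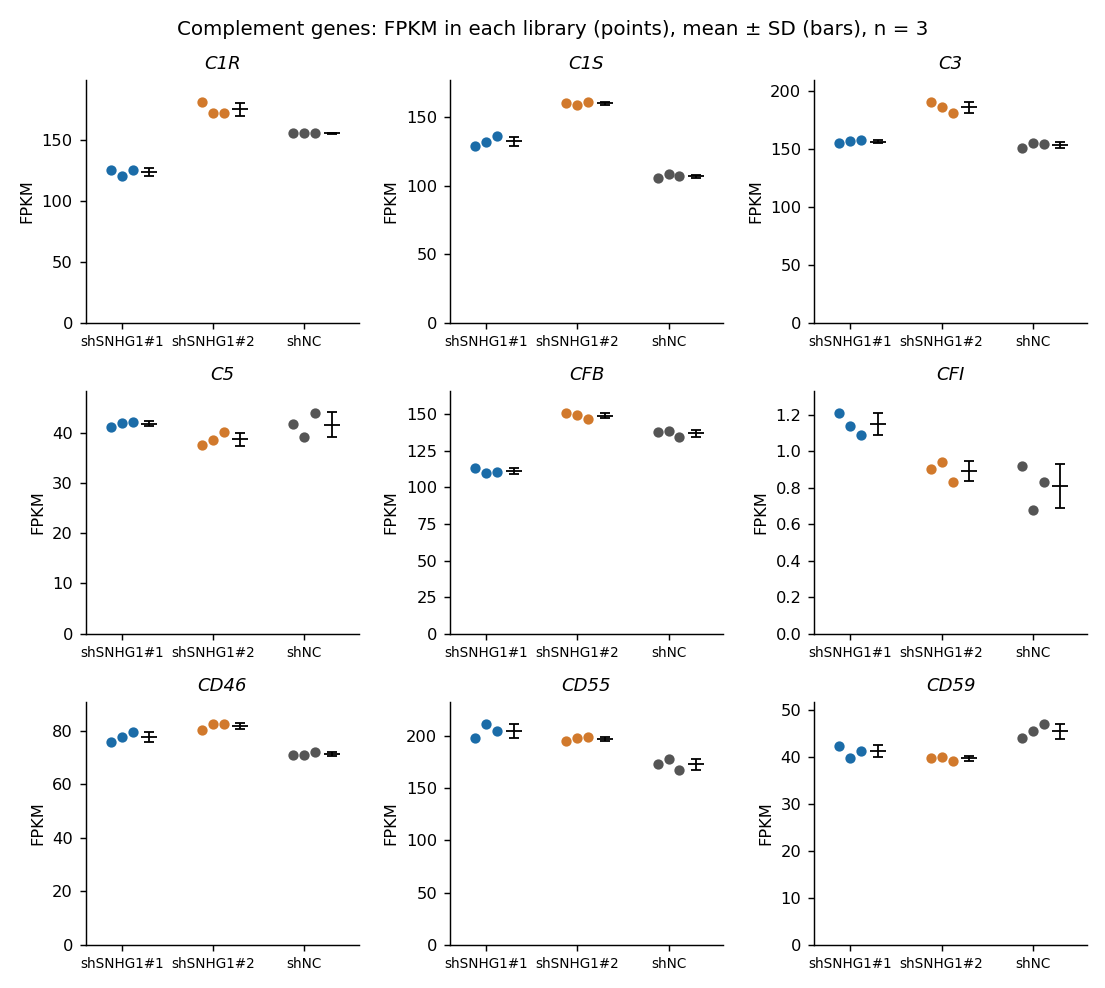
FPKM of each complement gene (vertical axis, from 0) in the libraries of shSNHG1#1, shSNHG1#2 and shNC; points are libraries and bars are mean ± SD of 3. C1R and CFB are lowest with shSNHG1#1 and highest with shSNHG1#2, C1S is higher with both hairpins, and CD59 is lower with both.

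C1R and C1S encode the paired proteases of the C1 complex and their genes are adjacent on chromosome 12, with C1RL next to them. C1R had 125.51, 120.37 and 125.31 FPKM with shSNHG1#1, 181.39, 172.06 and 172.33 FPKM with shSNHG1#2, and 155.35, 155.64 and 155.96 FPKM with shNC. No 2 groups overlapped, and the shNC libraries lay between the libraries of the 2 hairpins. The fitted log2 fold change of C1R, from counts, was -0.37 (SE 0.03) for shSNHG1#1 against shNC, 0.09 (SE 0.03) for shSNHG1#2 against shNC and 0.46 (SE 0.03) for shSNHG1#2 against shSNHG1#1, the last equal to 37.9% more. C1S had 129.18, 131.97 and 135.98 FPKM with shSNHG1#1, 160.19, 158.74 and 161.25 FPKM with shSNHG1#2, and 105.93, 108.19 and 106.74 FPKM with shNC. Both hairpin groups lay above shNC, with shSNHG1#2 the higher, and no groups overlapped. Its log2 fold change was 0.27 (SE 0.03) with shSNHG1#1 and 0.51 (SE 0.03) with shSNHG1#2 against shNC, and 0.25 (SE 0.03) between the hairpins. The C1R to C1S ratio of FPKM was therefore 0.912 to 0.972 with shSNHG1#1 and 1.07 to 1.13 with shSNHG1#2, against 1.44 to 1.47 with shNC. C1R exceeded C1S in each shSNHG1#2 and shNC library and was below it in each shSNHG1#1 library.

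C3 encodes the central component on which the pathways converge, and CFB the protease of the alternative convertase. C3 had 155.38, 156.77 and 157.45 FPKM with shSNHG1#1, 190.88, 186.27 and 181.00 FPKM with shSNHG1#2, and 150.63, 155.60 and 154.44 FPKM with shNC. The shSNHG1#1 and shNC libraries overlapped, and all shSNHG1#2 libraries lay above both. Its log2 fold change was -0.03 (SE 0.03) with shSNHG1#1 and 0.22 (SE 0.03) with shSNHG1#2 against shNC, and 0.24 (SE 0.03) between the hairpins. CFB had 113.39, 109.58 and 110.69 FPKM with shSNHG1#1, 150.90, 149.22 and 147.03 FPKM with shSNHG1#2, and 137.57, 138.72 and 134.52 FPKM with shNC. CFB had the same order of groups as C1R, with shSNHG1#1 lowest, shNC between, and no overlap. Its log2 fold change was -0.35 (SE 0.03) with shSNHG1#1 against shNC, 0.06 (SE 0.03) with shSNHG1#2 against shNC, and 0.40 (SE 0.03) between the hairpins.

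C5 encodes the component whose cleavage opens the terminal pathway. It had 41.19, 41.97 and 42.10 FPKM with shSNHG1#1, 37.50, 38.49 and 40.08 FPKM with shSNHG1#2, and 41.80, 39.07 and 43.93 FPKM with shNC. In FPKM both hairpin groups overlapped shNC. In scaled counts neither did: expected counts averaged 4462 with shSNHG1#1, 4158 with shSNHG1#2 and 4724 with shNC, and the log2 fold change was -0.13 (SE 0.03) with shSNHG1#1 and -0.25 (SE 0.03) with shSNHG1#2. The transcript length that the deposited counts and FPKM imply for C5 varied between libraries, from 4734 to 5655 bases, so the direction for shSNHG1#1 depends on the unit. On the log2 FPKM scale the value for shSNHG1#2 against shNC was -0.10 at its smallest, and C5 was past the threshold with neither hairpin. C3 stood 3.74 to 3.77 times above C5 in FPKM with shSNHG1#1 and 4.52 to 5.09 times with shSNHG1#2, against 3.52 to 3.98 times with shNC. CFI, the protease that inactivates C3b, had 1.21, 1.14 and 1.09 FPKM with shSNHG1#1, 0.90, 0.94 and 0.83 FPKM with shSNHG1#2, and 0.92, 0.68 and 0.83 FPKM with shNC. In FPKM all shSNHG1#1 libraries lay above the rest, and shSNHG1#2 overlapped shNC. Its log2 fold change was 0.41 with shSNHG1#1 and 0.27 with shSNHG1#2 against shNC, and -0.13 between the hairpins, each with an SE of 0.22, several times that of the abundant genes. From counts CFI did not pass the threshold used for calls, described with the edgeR results, but for shSNHG1#1 against shNC it did with limma on log2 FPKM, with a pseudocount of 1 or of 0.1.

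Of the membrane inhibitors, CD46, the cofactor for factor I, had 75.67, 77.50 and 79.40 FPKM with shSNHG1#1, 80.35, 82.36 and 82.46 FPKM with shSNHG1#2, and 70.82, 70.89 and 71.95 FPKM with shNC. The groups were separate in FPKM, but shSNHG1#1 overlapped shNC in scaled counts, where the log2 fold change was 0.05 (SE 0.03) with shSNHG1#1 and 0.12 (SE 0.03) with shSNHG1#2. CD46 had the narrowest range of the 9 genes over all libraries, 0.17 in log2 CPM (counts scaled to library size), against 0.55 for C1R and for C1S. CD55, the decay accelerator, had 197.73, 211.39 and 205.20 FPKM with shSNHG1#1, 194.71, 197.75 and 198.85 FPKM with shSNHG1#2, and 172.82, 178.08 and 167.47 FPKM with shNC. Both hairpin groups lay above shNC and overlapped each other in FPKM. Its log2 fold change was 0.19 (SE 0.03) with shSNHG1#1 and 0.10 (SE 0.03) with shSNHG1#2. CD59, the inhibitor of the membrane attack complex, had 42.41, 39.87 and 41.30 FPKM with shSNHG1#1, 39.88, 40.07 and 39.17 FPKM with shSNHG1#2, and 43.93, 45.42 and 47.00 FPKM with shNC. Both hairpin groups lay below shNC and overlapped each other, with a log2 fold change of -0.14 (SE 0.03) for shSNHG1#1 and -0.20 (SE 0.03) for shSNHG1#2. CD55 and CD46 thus lay on the other side of shNC from CD59 in FPKM.

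**Figure D2:**
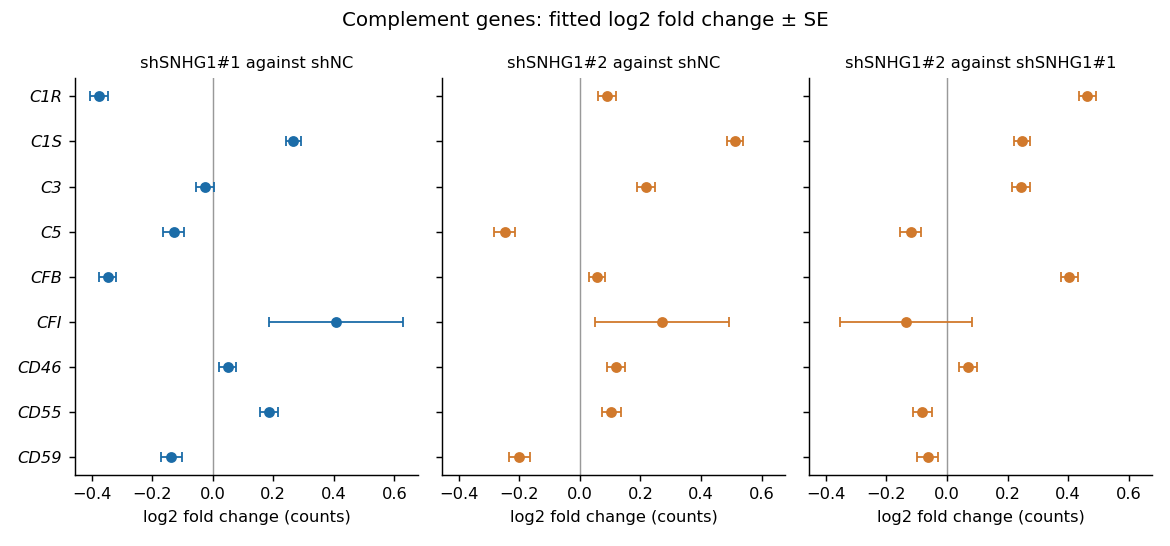
Fitted log2 fold changes of counts (points, horizontal axis) with SE (bars) for the 9 complement genes, in 3 panels for shSNHG1#1 against shNC, shSNHG1#2 against shNC and shSNHG1#2 against shSNHG1#1. C1R and CFB lie at -0.37 and -0.35 in the first panel and at 0.46 and 0.40 in the last; CFI has the widest bars.

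Differential expression was tested with edgeR over 18767 features, at a Benjamini-Hochberg adjusted p below 0.05. Of the 9 genes, 6 passed for shSNHG1#1 against shNC, where 48.1% of all features passed: C1S and CD55 were higher (24.5% of features were called higher) and C1R, C5, CFB and CD59 lower (23.5% of features). For shSNHG1#2 against shNC 7 passed, where 46.2% of features did: C1R, C1S, C3, CD46 and CD55 were higher (23.3% of features) and C5 and CD59 lower (22.8% of features). For shSNHG1#2 against shSNHG1#1 4 passed, where 3.12% of features did, and C1R, C1S, C3 and CFB were all higher; 2% of features were called higher and 1.12% lower. The genes were proposed with these contrasts in view, so nothing is read from these counts. Their median log2 fold change was -0.03, 0.10 and 0.07 in the 3 contrasts, against 0.02, 0.01 and -0.00 over all features tested. Libraries did not overlap in CPM for 7, 8 and 7 of the 9 genes, where 56.3%, 55.8% and 20.8% of features did not. The contrasts against shNC share their 3 shNC libraries. Small differences depended on single libraries or on scaling: the call of C1R for shSNHG1#2 against shNC ended without shSNHG1#2 replicate 1 or without any 1 shNC library, as it did with no filter on low counts, and that of CD55 ended without any 1 shSNHG1#2 library, shNC replicate 1 or shNC replicate 3. With library totals in place of TMM factors, C3 turned to a positive value, and CD59 and C5 lost their calls, for shSNHG1#1 against shNC. Leaving out shSNHG1#1 replicate 1, the library that stood apart, left 6 of the 9 past the threshold for shSNHG1#1 against shNC. Over all features 8293 passed in that fit, against 9023 with all libraries, and nothing is read from the count of 6.

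Other genes of the system were read from a list of 57 components, regulators and receptors, of which 55 were in the table and 30 could be tested; C9 and MBL2 were not analysed here. For shSNHG1#1 against shNC 6 rose and 8 fell, for shSNHG1#2 against shNC 9 rose and 9 fell, and for shSNHG1#2 against shSNHG1#1 2 rose and 3 fell; the rest did not pass. These are 14, 18 and 5 of 30 genes, beside 48.1%, 46.2% and 3.12% of all features. The median log2 fold change of the 30 was 0.07, -0.10 and 0.10. In this paragraph and those after it, adjusted p is edgeR's quasi-likelihood test with Benjamini-Hochberg adjustment. Among components, C1RL, a C1R-like protease gene beside C1R, fell: it had 22.08, 22.50 and 21.53 FPKM with shSNHG1#1, 25.91, 26.27 and 25.40 FPKM with shSNHG1#2, and 27.62, 29.56 and 31.77 FPKM with shNC. The groups did not overlap, and the log2 fold change was -0.46 with shSNHG1#1 (adjusted p 6.75e-06) and -0.23 with shSNHG1#2 (adjusted p 0.00117). C1RL was 0.23 higher with shSNHG1#2 than with shSNHG1#1 (adjusted p 0.0158), a call that ended without replicate 1 or 3 of shSNHG1#1 or replicate 1 or 2 of shSNHG1#2 (adjusted p 0.0533 to 0.0723). CFD, the protease that activates factor B, had 22.69, 15.38 and 14.38 FPKM with shSNHG1#1, 27.45, 23.58 and 17.28 FPKM with shSNHG1#2, and 25.31, 18.68 and 25.11 FPKM with shNC. Its groups overlapped in FPKM, but in scaled counts all shSNHG1#1 libraries lay below shNC. The length that counts and FPKM imply for CFD varied between libraries, from 1509 to 1966 bases. From counts CFD fell by 0.45 on the log2 scale with shSNHG1#1 (adjusted p 0.0176), and was at -0.24 with shSNHG1#2 (adjusted p 0.165). The call of CFD ended without replicate 2 or 3 of shSNHG1#1 or replicate 1 or 3 of shNC (adjusted p 0.0514 to 0.0615). It also ended with limma on log2 FPKM, at pseudocounts of 1 and 0.1 (limma adjusted p 0.172 and 0.166). For shSNHG1#2, CFD passed without replicate 1 of that group (adjusted p 0.0457). PTX3, a pattern recognition protein that binds C1q, fell by 0.84 (adjusted p 0.0137) with shSNHG1#1 and by 1.09 (adjusted p 0.00363) with shSNHG1#2. COLEC11, a collectin of the lectin pathway, was at 0.91 with shSNHG1#1 (adjusted p 0.0588). It passed there with library totals, with only the 2 groups fitted or without shSNHG1#2 replicate 2 (adjusted p 0.0412 to 0.0492). With shSNHG1#2 COLEC11 rose by 1.18 (adjusted p 0.0196). That call was lost without shSNHG1#2 replicate 2, shNC replicate 1 or shNC replicate 2 (adjusted p 0.0576 to 0.105). It was also lost with limma on log2 FPKM (limma adjusted p 0.115 and 0.09). C2, C4A and C6 averaged 1.02 to 1.79 FPKM in each group and did not pass in any contrast; C4A is nearly identical to C4B, so its value is uncertain.

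Among the regulators, SERPING1 and SUSD4 fell and VTN and C1QBP rose against shNC with both hairpins. SERPING1, the inhibitor of C1r and C1s, had 11.34, 5.89 and 5.28 FPKM with shSNHG1#1, 8.20, 8.87 and 8.21 FPKM with shSNHG1#2, and 11.93, 13.01 and 12.82 FPKM with shNC. All hairpin libraries lay below shNC, and within shSNHG1#1 the library that stood apart was high. SERPING1 fell by 0.79 with shSNHG1#1 (adjusted p 0.0131) and by 0.64 with shSNHG1#2 (adjusted p 0.0352). Without the library that stood apart its log2 fold change was -1.23 with shSNHG1#1 (adjusted p 1.85e-06) and -0.65 with shSNHG1#2 (adjusted p 4.02e-05). The call for shSNHG1#2 was lost without any 1 library of shSNHG1#2 or of shNC (adjusted p 0.0589 to 0.0885). That call was also lost with library totals (adjusted p 0.0519), with the DESeq2 Wald test (DESeq2 adjusted p 0.0506) and with limma on log2 FPKM (limma adjusted p 0.085 and 0.0879). Between the hairpins SERPING1 was at 0.15, and at 0.57 without the library that stood apart (adjusted p 0.00744). SUSD4, a membrane complement inhibitor, had 1.03, 0.61 and 0.41 FPKM with shSNHG1#1, 0.53, 0.57 and 0.93 FPKM with shSNHG1#2, and 2.16, 2.12 and 1.90 FPKM with shNC. It fell by 1.35 with shSNHG1#1 (adjusted p 3.64e-05) and by 1.39 with shSNHG1#2 (adjusted p 3.37e-05), with no overlap. VTN, which encodes vitronectin, an inhibitor of the terminal complex, rose by 0.41 (adjusted p 1.43e-05) and 0.55 (adjusted p 1.88e-06), with 28.71, 27.70 and 28.77 FPKM with shSNHG1#1, 32.72, 31.81 and 30.30 FPKM with shSNHG1#2, and 20.49, 20.91 and 20.44 FPKM with shNC. C1QBP, a multifunctional mitochondrial protein that can bind C1q, rose by 0.43 (adjusted p 1.27e-07) and 0.30 (adjusted p 2.68e-06), with means of 153, 142 and 109 FPKM for shSNHG1#1, shSNHG1#2 and shNC. It was lower with shSNHG1#2 than with shSNHG1#1 by a log2 fold change of -0.13 (adjusted p 0.0141), a call lost without shSNHG1#1 replicate 3 or replicate 2 or 3 of shSNHG1#2 (adjusted p 0.0955 to 0.117). CLU, which encodes clusterin, a fluid-phase inhibitor of the terminal complex, was the most abundant gene of the list at 387, 404 and 365 FPKM on average in the same groups, and did not pass in any contrast. With library totals as the scaling CLU passed against shNC with shSNHG1#1 (adjusted p 0.0423) and with shSNHG1#2 (adjusted p 0.00266). For shSNHG1#2 it also passed with limma on log2 FPKM, at pseudocounts of 1 and 0.1 (limma adjusted p 0.0069 and 0.00698).

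Lower-level regulators also passed. C4BPA, the alpha chain of C4b-binding protein and the neighbour of CD55 on chromosome 1, rose by 0.80 with shSNHG1#1 (adjusted p 0.00297) and by 1.04 with shSNHG1#2 (adjusted p 0.000555), with 3.09, 1.84 and 2.35 FPKM, 2.74, 2.93 and 2.96 FPKM, and 1.34, 1.18 and 1.44 FPKM in shSNHG1#1, shSNHG1#2 and shNC libraries. The hairpin libraries all lay above shNC. THBD, which encodes thrombomodulin, rose by 0.37 (adjusted p 0.0014) and 0.45 (adjusted p 0.000383), and PROS1, which encodes protein S, a partner of C4b-binding protein, by 0.27 (adjusted p 0.0052) and 0.20 (adjusted p 0.0293); the second call of PROS1 was lost without shSNHG1#2 replicate 2, shNC replicate 1 or shNC replicate 2 (adjusted p 0.0884 to 0.131). ITGAX, a chain of complement receptor 4, rose by 0.50 (adjusted p 0.000459) and 0.40 (adjusted p 0.00232). ITGB2, its partner chain, passed with shSNHG1#2 at 0.35 (adjusted p 0.017). The call was lost without shSNHG1#2 replicate 1, shNC replicate 1 or shNC replicate 3 (adjusted p 0.0616 to 0.0679). With limma on log2 FPKM, at pseudocounts of 1 and 0.1, ITGB2 was at 0.15 and 0.20 and did not pass (limma adjusted p 0.279 and 0.29). CR1 and CR1L, between CD55 and CD46 on chromosome 1, fell by 1.34 and 1.43 with shSNHG1#1 (adjusted p 0.0107 and 0.0103). With shSNHG1#2 they fell by 1.43 and 1.22 (adjusted p 0.00828 and 0.0222). CR1 reached at most 0.09 FPKM and CR1L at most 0.81 FPKM in any library, and CR1 overlapped between shSNHG1#1 and shNC in FPKM. CR1 lost its call for shSNHG1#1 without shNC replicate 2 (adjusted p 0.0513) and with limma on log2 FPKM (limma adjusted p 0.276 and 0.177). For shSNHG1#2 CR1 lost it with limma at a pseudocount of 1 (limma adjusted p 0.0535). CR1L lost its call for shSNHG1#2 without replicate 1 or 3 of that group or replicate 1 or 2 of shNC (adjusted p 0.0514 to 0.0692). FCN1, a ficolin, and CD93, a C1q receptor-like gene, had at most 0.03 FPKM with shSNHG1#2 and fell against shNC (adjusted p 0.00357 and 0.0128). Against shNC, CD93 did not pass with limma on log2 FPKM (limma adjusted p 0.345 and 0.113). FCN1 did not pass with limma at a pseudocount of 1 (limma adjusted p 0.0558). Both were also lower with shSNHG1#2 than with shSNHG1#1 (adjusted p 0.0222 and 0.0266), and both lost that call without any 1 shSNHG1#2 library (adjusted p 0.0591 to 0.0864 for FCN1 and 0.0824 to 0.111 for CD93). FCN1 also lost it without shSNHG1#1 replicate 1, the library that stood apart (adjusted p 0.0787), or replicate 2 of that group (adjusted p 0.0547). CD93 had 0.46, 0.06 and 0.09 FPKM with shSNHG1#1, the high value again in replicate 1, and 0.11, 0.16 and 0.08 FPKM with shNC. PTPRC, a leukocyte marker, had 0.42, 0.12 and 0.22 FPKM with shSNHG1#1, 0.03, 0.04 and 0.05 FPKM with shSNHG1#2, and 0.16, 0.21 and 0.20 FPKM with shNC. It thus was lowest in the libraries where FCN1 and CD93 were lowest, and fell by 2.14 with shSNHG1#2 against shNC (adjusted p 0.00338) and by 2.40 against shSNHG1#1 (adjusted p 0.0206). DCN, a fibroblast marker, had at most 0.02 FPKM with shSNHG1#2, against 0.22 to 0.81 FPKM with shNC, and did not pass (adjusted p 0.129). Of the 7 fibroblast and endothelial markers 6 were tested, and only COL1A1 passed with shSNHG1#2 against shNC. It rose by 1.06 (adjusted p 2.47e-05), with 2.63 to 2.84 FPKM against 1.23 to 1.28 FPKM. PECAM1 was at 0.89 (adjusted p 0.0633), while COL3A1, PDGFRB and VWF were below 0 and did not pass. Of the 7 monocyte and macrophage markers 5 were tested, and with shSNHG1#2 against shNC PTPRC and CD68 fell. The other 3 were above 0 and did not pass: CD14 at 0.29 (adjusted p 0.153), CSF1R at 0.43 (adjusted p 0.547) and LYZ at 0.24 (adjusted p 0.75). With shSNHG1#1 against shNC, CD14 rose by 0.84 (adjusted p 0.000947). The part of these markers in the values of FCN1 and CD93 was not tested. C5AR1, ITGAM and CSMD1 averaged 1.12 to 3.59 FPKM and did not pass in any contrast.

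**Figure D3:**
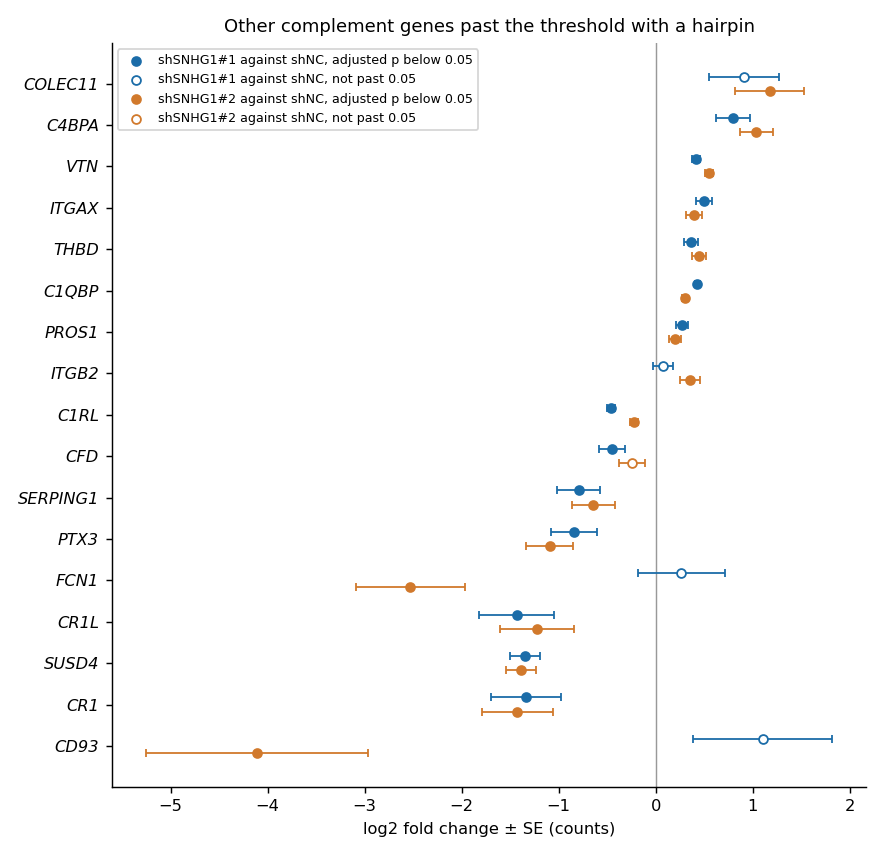
Fitted log2 fold changes of counts with SE (horizontal axis) for other complement genes past the threshold with shSNHG1#1 (blue) or shSNHG1#2 (orange) against shNC; filled points passed an adjusted p of 0.05. SUSD4 and C1RL lie below 0 with both hairpins, and VTN, C4BPA and C1QBP above 0.

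The genes of C1q were near 0 in all but 1 library. C1QA had 3.76, 0.00 and 0.21 FPKM with shSNHG1#1, was listed at 0 in all 3 shSNHG1#2 libraries, and had 0.11, 0.01 and 0.23 FPKM with shNC. C1QB had 3.98, 0.08 and 0.20 FPKM with shSNHG1#1, was listed at 0 with shSNHG1#2, and had 0.28, 0.04 and 0.20 FPKM with shNC. C1QC had 2.32, 0.17 and 0.16 FPKM with shSNHG1#1, at most 0.02 FPKM with shSNHG1#2, and 0.14, 0.07 and 0.05 FPKM with shNC. All high values are in replicate 1 of shSNHG1#1, the library with the high fibroblast and macrophage markers, where C7 (1.30 FPKM), FCN3 (1.86 FPKM), VSIG4 (0.88 FPKM), LYZ (6.06 FPKM) and DCN (9.80 FPKM) were also highest. None of these C1q genes passed the filter on low counts. The part of those markers in the results was not tested. CD68, a lysosomal glycoprotein used as a macrophage marker, had 90.03, 87.40 and 83.46 FPKM with shSNHG1#1, 123.81, 120.63 and 121.39 FPKM with shSNHG1#2, and 268.53, 285.53 and 268.04 FPKM with shNC, and made up most of the monocyte marker sum of 89.0 to 102 FPKM, 125 to 128 FPKM and 272 to 289 FPKM.

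**Figure D4:**
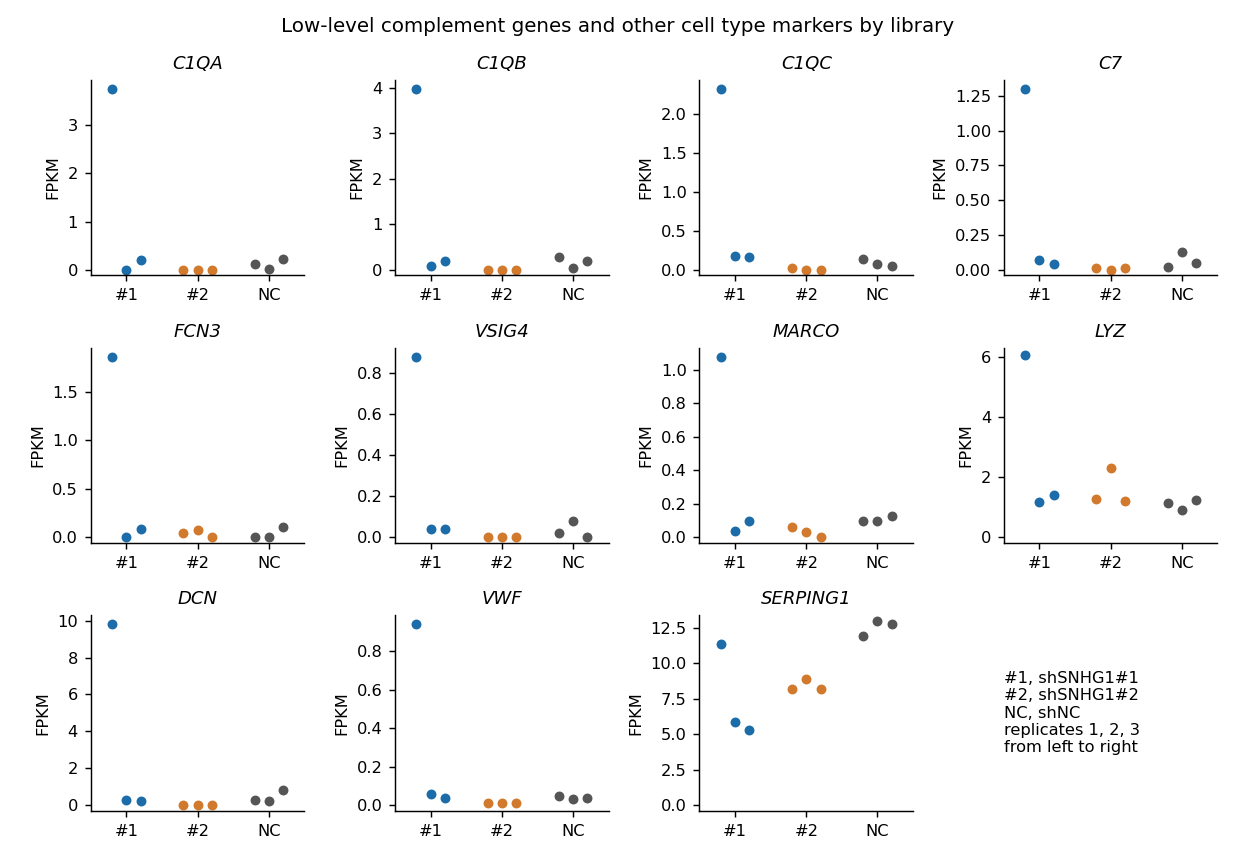
FPKM (vertical axis, a scale for each panel) in the 3 libraries of shSNHG1#1, shSNHG1#2 and shNC for C1q chains, other low-level complement genes and markers of macrophages, fibroblasts and endothelium. Replicate 1 of shSNHG1#1 is the highest point in each panel except that of SERPING1.

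Genes with the most similar profile over the 9 libraries were found for CD55, the most abundant of the 9 with shNC, and for CFI, the one with the widest range (0.77 in log2 CPM). The measure was the root mean square difference of centred log2 CPM among 12684 features whose mean log2 CPM reached 2. For CD55 the closest were GSPT1 (0.0136), DOCK4 (0.0213), AP2B1 (0.0266), GSR (0.0268) and HADHA (0.0269), where the median feature stood at 0.167. GSPT1 encodes a translation release factor and AP2B1 a clathrin adaptor subunit. For CFI they were STK19 (0.107), MGAT4A (0.111), UTP14C (0.123), OPLAH (0.124) and ALOX12P2 (0.124), against a median of 0.274. CFI had only 30.4 to 55.23 expected counts per library, with an SE of 0.22 in each contrast, so its range and its nearest profiles are imprecise. This is a description over 9 libraries in 3 groups.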

How the data were processed

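Expected counts and FPKM were deposited by the authors for each of 9 libraries, per the file headers. FPKM is the authors' own level per transcript length and library size. The submitters' processing notes list RSEM 1.2.12, HISAT2 2.0.4, DESeq2 1.4.5 and Bowtie2 2.2.5 without saying what each did. Build, annotation and strand setting: not given in the sources used here. Overlapping or near-identical genes are therefore uncertain. The authors' 6 average columns were not used. Rounded expected counts were tested in edgeR 4.0.16 (R 4.3.3): filterByExpr kept 18767 of 27407 features, 3804 features of the table have no gene symbol, scaling was TMM, and the quasi-likelihood test used 1 model of all 9 libraries with the 3 groups, adjusted by Benjamini-Hochberg (threshold 0.05). The median biological coefficient of variation was 7.28%. Depth of 21502093 to 21606498 counts per library limits precision for low genes such as CFI, whose SE was 0.22. Alternatives were RLE scaling, library totals, no filter, a replicate block, only the groups of a contrast, DESeq2 1.42.0, limma 3.58.1 on log2(FPKM + 1) and log2(FPKM + 0.1), and leaving out each library. Scripts were tested on simulated data. All 9 members, the other complement genes past the threshold in any contrast or averaging at least 1 FPKM in any group, and the 5 nearest profiles of CD55 and CFI are named; markers and low genes outside that rule were named after their values were seen. The members and lists were chosen with earlier results of these data known. Some genes that the rule covers are counted but not reported here by name. SNHG1 was not analysed here.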

Additional observations from a re-analysis of the deposited data

Results flagged for a closer look

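C1R and CFB lay on opposite sides of shNC with the 2 hairpins: every shSNHG1#1 library was below every shNC library, and every shSNHG1#2 library was above every one. The log2 fold change of C1R was -0.37 for shSNHG1#1 against shNC and 0.089 for shSNHG1#2 against shNC. For CFB the values were -0.35 and 0.056. The positive value of C1R lost its call under 5 of 17 alternatives, and that of CFB, not past the threshold from counts, passed under 3 of 17: with library totals and with limma on log2 FPKM at either pseudocount. Because the genes were proposed with these changes in view, the difference between the hairpins was not tested as independent evidence.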

How the results depend on the processing

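Over all features, 586 passed for shSNHG1#2 against shSNHG1#1. The count was 386 with only those groups fitted, 959 with DESeq2, and 297 to 534 leaving out 1 library, lowest without shSNHG1#2 replicate 2. Among other complement genes the 5 calls became 1 with only those groups, 3 with DESeq2, 3 with limma on log2(FPKM + 1), and 0 to 5 leaving out 1 library; edgeR gave 0 without shSNHG1#2 replicate 2, where 10 passed unadjusted. Leaving out 1 library gave 8051 to 8939 calls for shSNHG1#1 and 7676 to 8753 for shSNHG1#2 against shNC, and 13 to 15 and 12 to 19 among other complement genes. C5 for shSNHG1#1 against shNC, called lower from counts, was 0.0067 and 0.0069 with limma on log2(FPKM + 1) and log2(FPKM + 0.1); the deposited counts and FPKM imply different lengths between libraries. Library totals moved the share of calls that were higher to 58% from 51% (shSNHG1#1 against shNC), to 60.9% from 50.5% (shSNHG1#2 against shNC) and to 74.8% from 64% (between hairpins). Replicate numbers did not pair libraries: same-number correlations were -0.0769 to 0.0775, and 3 of 9 pairs correlated best with their own number; with a replicate block 8752, 8421 and 433 features passed, and 14, 18 and 4 other complement genes. Depth limits CFI and genes under about 1 FPKM.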
